A study of Mus musculus with 5 samples.

Results

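Lpp, Trib1 and Rbm47 are the 3 mouse genes, of 21000 protein-coding genes with a curated transcription start site (TSS), that were chosen by the number of macrophage-only distal DNaseI hypersensitive sites (DHSs) near them. A DHS is a stretch of chromatin that DNase I cuts readily because it is not packed in nucleosomes. The measure that chose the genes was the count of regions listed in macrophages and in none of the 4 earlier stages analysed, over 2 kb from any curated protein-coding TSS, whose nearest curated protein-coding TSS within 100 kb was that of the gene. This count was 22 for Lpp, 17 for Trib1 and 15 for Rbm47. Rbm47 was tied with Tns3 and Zfp36l2, which also had 15, and Cd44, Elmo1 and Sgms1 followed with 14 each. These counts are given as a description, since the selection used them.

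DHSs were mapped by DNaseI-seq at 5 stages on the way from mouse embryonic stem cells to blood in culture. The cells were a strain 129 line with a Brachyury-GFP reporter. Cells were sorted as Bry:GFP+ Flk1- mesoderm (MES), Bry:GFP+ Flk1+ hemangioblasts (HB), Tie2+ cKit+ CD41- hemogenic endothelium (HE), CD41+ hematopoietic progenitors (HP) and CD11b+ macrophages (MAC). All 5 came from the same reporter line, with no added gene or deletion named for any of them. Each stage was 1 list of sites, and the label of the MAC list names Rep1 and Rep2 together, so no spread between replicates could be given and no difference between stages was tested.

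The lists held between 17734 sites in HP and 37456 sites in MAC, with a median width of 600 bp in MAC and 1200 bp in HE. They hold positions only and the depth of sequencing is not known from them, since totals of aligned reads were not used. A stage without a site means that none was listed there. The labels were compared with the promoters of the sorting markers. Itgam, which encodes CD11b, and the macrophage growth factor receptor gene Csf1r had a promoter site in MAC alone. Brachyury (T) had one in MES and HB, Tek, which encodes Tie2, in HE, and Itga2b, which encodes CD41, in HE and HP. Kit had a promoter site in every stage but MAC, and Kdr, which encodes Flk1, had one in all 5.

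Open chromatin away from promoters marks stretches where transcription factors bind, and genes used in a given cell type are often surrounded by many such elements. In macrophages these elements are typically bound by PU.1, the Ets factor that drives myeloid fate, together with C/EBP, AP-1 and RUNX factors. Lpp encodes a LIM domain protein of the zyxin family that sits at focal adhesions and binds the actin regulator VASP, and it is also the host gene of the microRNA Mir28a. Trib1 encodes a pseudokinase that brings C/EBPα to the ubiquitin ligase COP1 for degradation, and it is required for a class of tissue macrophages. Rbm47 encodes an RNA-binding protein that acts as a cofactor of the cytidine deaminase APOBEC1 in C-to-U editing of mRNA.

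For each gene a locus window was set, from 100 kb before the first to 100 kb after the last annotated TSS, widened to the whole gene where the gene was longer. Sites of all stages were set to 500 bp around their middle and merged into 68846 regions, and a region with a site of a stage counted as open at that stage. A region open in MAC and in no other stage was called MAC-only. Undifferentiated stem cells were not analysed here, so this holds among the 5 lists. The windows held 96 regions, of which 72 were MAC-only and 71 of these were distal, 6 were open in MAC and another stage and 18 were not open in MAC.

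The sequences below show what these MAC-only regions hold. They are the piece of 300 bases with most matches within the widest MAC-only site of each gene, and likewise within the MAC-only region with the most different kinds of myeloid consensus. Capitals mark exact matches on either strand to the consensus of PU.1 (GAGGAAGT), C/EBP (TTGCNNAA), AP-1 (TGANTCA) or RUNX (TGTGGT). Each was read from the RefSeq assembly GRCm38.p6, the build that mm10 names, on the strand of the gene and from 5′ to 3′, and is the sequence of the reference strain and not of the strain 129 line. A match is a run of letters and was not shown to be bound. Where the deposited site was narrower than the region of 500 bp, a match can lie outside the site.

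The widest MAC-only site of Lpp was 1300 bp, in intron 4 and 185.1 kb downstream of the outer TSS, and the piece chr16:24578308-24578607 on the plus strand held 1 C/EBP and 1 RUNX match.
Lpp, widest: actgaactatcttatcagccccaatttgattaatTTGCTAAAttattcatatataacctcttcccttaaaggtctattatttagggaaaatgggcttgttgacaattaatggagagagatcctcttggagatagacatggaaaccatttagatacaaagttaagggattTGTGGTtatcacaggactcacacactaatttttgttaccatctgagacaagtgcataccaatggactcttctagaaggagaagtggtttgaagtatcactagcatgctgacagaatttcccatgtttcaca
Where regions tied on the number of kinds, the one with most matches was taken, and then the one nearest to a TSS. Of the 4 regions of Lpp with 3 kinds, the one taken lay 236.3 kb downstream in intron 5, and the piece chr16:24629410-24629709 on the plus strand held 1 AP-1, 2 C/EBP and 1 RUNX match.
Lpp, most kinds: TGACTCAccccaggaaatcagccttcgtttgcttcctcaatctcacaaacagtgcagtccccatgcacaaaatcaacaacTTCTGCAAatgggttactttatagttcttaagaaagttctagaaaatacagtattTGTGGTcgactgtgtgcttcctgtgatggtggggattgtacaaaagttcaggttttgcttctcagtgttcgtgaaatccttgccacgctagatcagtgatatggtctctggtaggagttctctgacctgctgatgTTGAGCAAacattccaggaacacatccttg
The widest MAC-only site of Trib1 was 1300 bp and lay between genes, 79.9 kb downstream of the TSS, and the piece chr15:59728386-59728685 on the plus strand held 2 AP-1 matches and 1 RUNX match.
Trib1, widest: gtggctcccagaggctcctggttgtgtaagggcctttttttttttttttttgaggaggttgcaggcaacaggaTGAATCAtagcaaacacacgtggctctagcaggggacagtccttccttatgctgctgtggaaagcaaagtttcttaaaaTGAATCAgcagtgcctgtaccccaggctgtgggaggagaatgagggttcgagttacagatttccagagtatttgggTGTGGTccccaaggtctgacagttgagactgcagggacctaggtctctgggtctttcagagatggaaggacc
The region of Trib1 with 3 kinds lay 28.6 kb upstream inside the long noncoding RNA gene Gm36677, and the piece chr15:59619936-59620235 on the plus strand held 1 RUNX, 1 C/EBP and 1 PU.1 match. Its deposited MAC site was only 200 bp, at chr15:59619986-59620185, and the RUNX match lay outside it.
Trib1, most kinds: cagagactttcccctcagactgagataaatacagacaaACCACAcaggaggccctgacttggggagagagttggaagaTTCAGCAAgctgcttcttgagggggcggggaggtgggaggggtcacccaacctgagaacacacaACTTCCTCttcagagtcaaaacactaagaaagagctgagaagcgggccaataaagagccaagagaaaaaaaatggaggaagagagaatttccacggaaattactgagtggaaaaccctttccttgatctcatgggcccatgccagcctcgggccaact
The widest MAC-only site of Rbm47 was 1000 bp, in intron 2 and 39.7 kb downstream of the outer TSS, and the piece chr5:66112094-66112393 on the minus strand held 1 PU.1 and 1 C/EBP match.
Rbm47, widest: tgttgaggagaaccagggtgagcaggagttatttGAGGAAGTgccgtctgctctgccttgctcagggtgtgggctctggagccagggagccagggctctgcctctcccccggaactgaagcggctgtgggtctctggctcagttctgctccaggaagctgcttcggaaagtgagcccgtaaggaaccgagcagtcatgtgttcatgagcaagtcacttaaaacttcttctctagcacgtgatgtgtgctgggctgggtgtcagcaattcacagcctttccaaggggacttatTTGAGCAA
The region of Rbm47 with 3 kinds lay 46.0 kb downstream in intron 2, and the piece chr5:66105815-66106114 on the minus strand held 1 C/EBP, 1 AP-1 and 1 RUNX match.
Rbm47, most kinds: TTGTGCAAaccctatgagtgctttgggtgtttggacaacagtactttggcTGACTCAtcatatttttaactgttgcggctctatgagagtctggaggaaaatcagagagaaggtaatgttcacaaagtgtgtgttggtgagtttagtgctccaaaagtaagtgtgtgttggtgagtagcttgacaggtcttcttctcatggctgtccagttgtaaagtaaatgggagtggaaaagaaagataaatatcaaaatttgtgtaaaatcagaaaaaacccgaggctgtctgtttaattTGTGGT

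Lpp lies on chr16:24393350-24992578 on the plus strand and is 599 kb long, with 8 annotated TSS of which 3 are curated. Its window of 699 kb held 49 regions, and the stages shared few of them. There were 40 regions open in MAC, against 5 in MES, 7 in HB, 4 in HE and 1 in HP. The median over the windows of all 21000 genes was 6 for MAC, 3 for MES, 4 for HB, 5 for HE and 3 for HP. By count, Lpp was therefore below the median gene in HE and HP, above it in MES and HB, and had more regions open in MAC than any other gene. The counts were not scaled for window length and the Lpp window is long, so none of these comparisons allows for length.

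**Figure D1:**
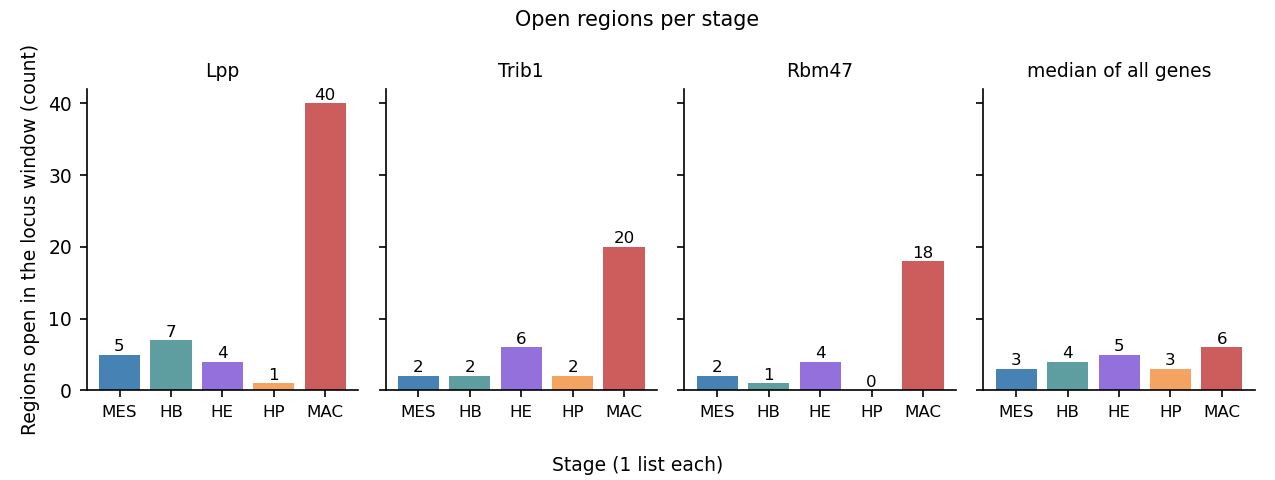
Number of regions open in the locus window of Lpp, Trib1 and Rbm47 at each stage, with the median over the windows of all genes in the last panel. Bars are counts from 1 list per stage and have no error. MAC reaches 40, 20 and 18 regions, while the other 4 stages stay between 0 and 7.

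Of the 40 regions open in MAC at Lpp, 38 were MAC-only, or 95%. Over all regions of the series this share was 57.1%. The genes were chosen for many MAC-only regions, so their MAC-only shares follow from the selection and are a description. All 38 were distal, which made 5.43 per 100 kb of window. With either of 2 rules that kept only the wider sites of each list, 14 distal ones were left. Only 0.133% of all genes had at least 16 MAC-only distal regions in their window, the lowest count of the 3 chosen genes, and the median gene had 2. Lpp had the highest count, ahead of Snx29 with 24. Its window is long, and by density 165 genes were at least as rich as Lpp, itself included.

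The MAC-only regions ran through most of the gene. Relative to the exons of the curated transcript with 13 exons, 33 lay in introns, 4 upstream and 1 in exon 13. Intron 5 held 10 of them, intron 10 held 6, introns 4 and 8 held 4 each, and introns 1, 3 and 7 held 3 each. Their deposited MAC sites were between 200 and 1300 bp wide with a median of 500 bp, the same median as for MAC-only distal regions outside the 3 loci.

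Regions of the earlier stages sat at the 5′ end of Lpp. The 9 regions not open in MAC were spread from 93.0 kb before to 173.1 kb past the outer TSS. Upstream, a MES and HB region lay at 93.0 kb, a MES region at 79.5 kb and an HB region at 26.1 kb. Inside the gene an HB and HE region lay at 41.2 kb, a MES and HB region at 48.1 kb, an HE region at 54.7 kb and a MES region at 56.7 kb. HB regions followed at 108.4 and 173.1 kb. Past 173.1 kb, over the last 426 kb of the gene, all 28 listed regions were MAC-only. The map of regions by stage shows this 3′ stretch with marks in the MAC row alone.

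**Figure D2:**
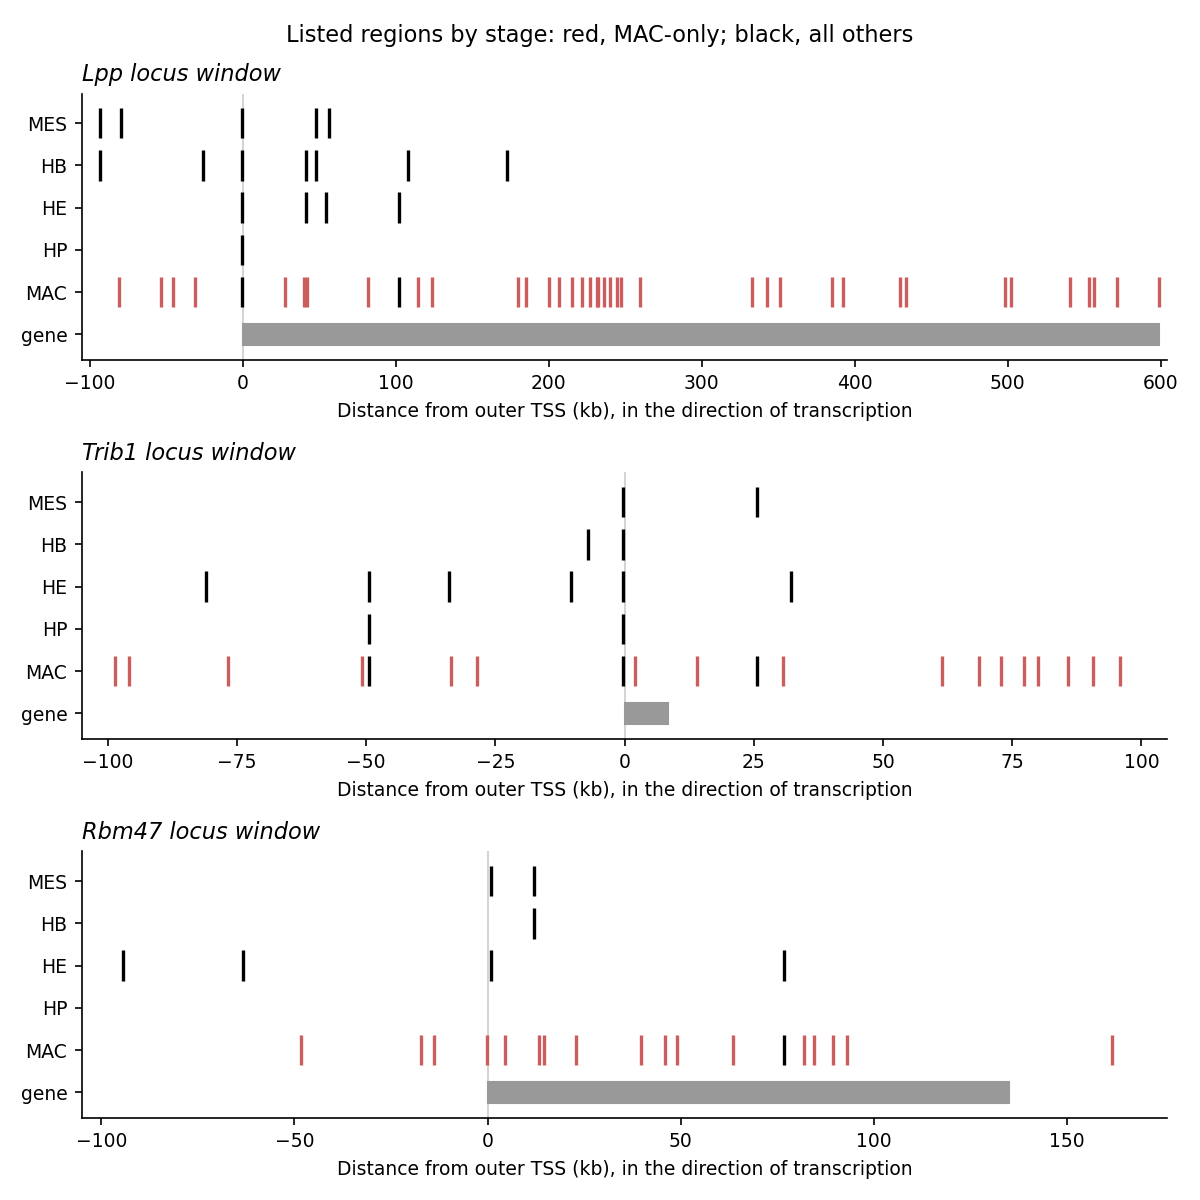
Position of every region in the 3 locus windows, by stage, as distance from the outer TSS in kb in the direction of transcription. Red marks are MAC-only regions, black marks are regions with any other pattern, and the grey bar is the gene. In Lpp all 28 regions past 173.1 kb are red, and in Trib1 all 8 past 32.1 kb are.

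Cluster sizes describe how the MAC sites were arranged, and large ones follow in part from the selection of genes with many MAC-only regions. Joining MAC sites with gaps of at most 25 times the 500 bp length gave 21729 clusters over the genome, with a median of 1 site. The largest cluster at Lpp held 12 sites over 60.1 kb, at chr16:24593408-24653507, and its 12 regions were all MAC-only. Clusters with at least 12 sites were 34, or 0.156% of all. None of the other stages had a region within this stretch. No annotated TSS of Lpp lies in the cluster. The predicted TSS at 24589712 lay 3696 bp before its first site. The nearest curated TSS, at position 24721855, had no site within 1 kb at any stage.

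The promoter of Lpp was open throughout. A site at the outer TSS, position 24393350, was listed in MES, HB, HE, HP and MAC. Promoters with a site within 1 kb of any annotated TSS belonged to 50.2% of all genes in MAC, 57.2% in MES, 58.9% in HB, 61.7% in HE and 50.1% in HP. The alternative starts differed from the outer one. The curated TSS at 24448091 lay inside an HE site and had no site of another stage within 1 kb, and the predicted TSS at 24565640 had only an HB site, 607 bp away.

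Besides the promoter, a single region of Lpp was open both in MAC and earlier. It lay 102.3 kb downstream at chr16:24495369-24495957 and was open in HE and MAC, with a site of 1000 bp in HE and 400 bp in MAC. The windows around the middle of sites set 2 further regions apart that the deposited intervals join. An HE site of 2000 bp at chr16:24433519-24435518 overlapped the MAC sites of the MAC-only regions at 40.3 and 42.1 kb, one at each end.

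No other protein-coding gene starts in the Lpp window. The closest are Bcl6, which encodes a transcriptional repressor of germinal centre B cells, 404 kb to the left, and Tprg, 294 kb to the right. All 38 MAC-only regions were nearer to a TSS of Lpp than to any other protein-coding TSS. The interval between Bcl6 and Lpp held 18 MAC-only regions, or 4.46 per 100 kb, against 5.68 per 100 kb within the Lpp gene and 2.04 per 100 kb between Lpp and Tprg. Bcl6 had a promoter site in MES, HB, HE and MAC and was the nearest gene of 12 MAC-only regions, while Tprg had no promoter site at any stage. Noncoding genes that start in the window are Lppos, which shares the open promoter of Lpp, and Gm38456, Gm52245, Gm22672, Gm24440, Mir28a and the pseudogene Morf4l1-ps1, none with a site within 1 kb of its start. The nearest MAC site to Mir28a was 1148 bp away. The lists do not tell which of these genes a region acts on.

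Trib1 lies on chr15:59648654-59657099 on the plus strand and is 8.45 kb long, with a single annotated TSS. Its window of 200 kb held 25 regions. There were 20 regions open in MAC, against 2 in MES, 2 in HB, 6 in HE and 2 in HP. Of the 20 MAC regions 17 were MAC-only, or 85.0%, and all 17 were distal. Trib1 was below the median gene in MES, HB and HP and above it by 1 region in HE. The count rested on the reach of the window, with 5 MAC-only distal regions within 50 kb of the TSS and 34 within 200 kb, and with only the wider sites of each list it was 10.

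Trib1 was the densest of the 3 loci, with 8.5 MAC-only distal regions per 100 kb. The median over all genes was 0.995, and only Atf3, the gene of a stress-induced AP-1 family factor, was denser with 9.5. By count 19 genes had at least as many in their window, Trib1 and its neighbour Nsmce2 included. The median gap between neighbouring MAC-only regions was 6.55 kb, against 9.3 kb at Lpp and 8.4 kb at Rbm47. The plot of counts against window length shows Trib1 near the top of the shortest windows and Lpp above all windows.

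**Figure D3:**
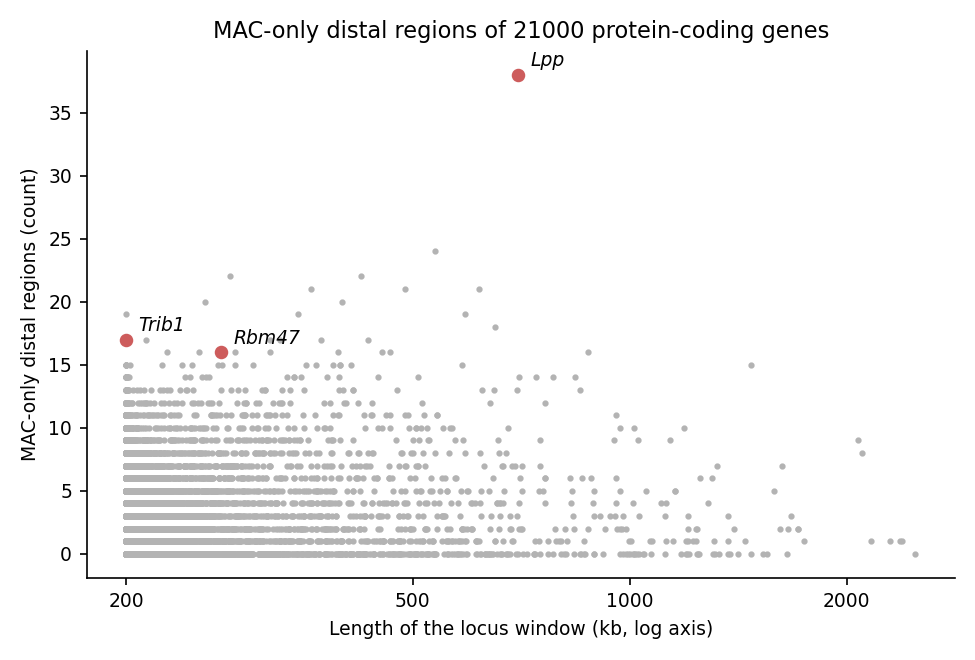
MAC-only distal regions in the locus window of each protein-coding gene (count) against the length of the window (kb, log axis). Each grey point is a gene and red points are Lpp with 38, Trib1 with 17 and Rbm47 with 16.

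The MAC-only regions of Trib1 were outside the gene except for 1 in intron 1, at 2.1 kb. Upstream there were 6, from 98.6 to 28.6 kb before the TSS, and downstream 10, from 14.1 to 95.9 kb after the TSS. The downstream side held all 8 regions past 32.1 kb, and these 8 were MAC-only. They are the near end of a larger array. The cluster to which they belong held 22 MAC sites over 122 kb, from 61.3 to 183 kb downstream at chr15:59709986-59831685, of which 14 lay beyond the window. Its 23 regions comprised 19 that were MAC-only, 3 open in MAC and earlier stages and 1 open in HE alone. Only 2 of the 21729 clusters, or 0.0092%, had at least 22 sites, and the largest had 28, a rank that the selection of the gene favours. The size of the array depended on the gap that joins sites, with 4 sites in the largest cluster at gaps of at most 5 kb and 27 at gaps of at most 25 kb. The regions shared with earlier stages lay outside the window, at 111.2 kb (HE and MAC), 135.5 kb (HP and MAC) and 179.9 kb (HB, HE and MAC).

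The Trib1 promoter had a site in all 5 stages, and the only TSS lay inside each of them. The other regions shared between MAC and an earlier stage were 2. One lay 49.5 kb upstream at chr15:59598786-59599424 and was open in HE, HP and MAC. It was the only region of the 3 loci away from a promoter that was open in HP. The other lay 25.6 kb downstream at chr15:59673974-59674485 and was open in MES and MAC, with sites of at most 500 bp, and not in the stages between.

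Trib1 had 4 distal regions open in HE alone, where the median gene had 1. They lay 80.9, 34.0 and 10.3 kb upstream and 32.1 kb past the TSS, and an HB region lay 7.1 kb upstream. None of these 5 was open in MAC. The HE region at 34.0 kb and the MAC-only region at 33.6 kb were called apart by their middles, while the deposited HE site of 1000 bp and MAC site of 1200 bp overlapped. With Lpp, 3 of the 71 MAC-only distal regions overlapped a deposited site of an earlier stage in this way, and in all 3 the earlier stage was HE.

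The upstream neighbour of Trib1 is Nsmce2, which encodes a SUMO ligase of the SMC5/6 complex and ends 47 kb before Trib1. The Trib1 window reached into Nsmce2, which held 6 of the 25 regions and 4 of the 17 MAC-only ones, although the Trib1 TSS was the nearest protein-coding TSS to each of them. Nsmce2 had a promoter site in all 5 stages. Downstream no protein-coding gene followed for 358 kb, up to 4933412E24Rik, which had no promoter site at any stage. That interval held 33 regions, of which 30 were open in MAC and 25 were MAC-only, or 6.98 per 100 kb. At any distance Trib1 was the nearest gene of 31 MAC-only distal regions, 14 of them beyond 100 kb.

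Rbm47 lies on chr5:66016549-66151954 on the minus strand and is 135 kb long, with 6 annotated TSS of which 3 are curated. Its window of 271 kb held 22 regions. There were 18 regions open in MAC, against 2 in MES, 1 in HB, 4 in HE and 0 in HP. Of the 18 MAC regions 17 were MAC-only, or 94.4%, and 16 of these were distal. The distal count was 5 with sites from the median width of their list up, and 3 with the widest sites up to the length of the shortest list. The absence of HP sites held for 4278 of the 21000 genes, Rbm47 included. The HP list was the shortest of the 5.

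With 5.91 MAC-only distal regions per 100 kb, Rbm47 was exceeded or matched by 85 genes, itself included. By count 28 genes had at least 16. The regions were mostly inside the gene. Relative to the curated transcript with 8 exons, 7 lay in intron 2, 5 in intron 3, 3 upstream and 1 downstream. Their median distance to the nearest protein-coding TSS was 15.7 kb, against 90.2 kb at Lpp and 72.9 kb at Trib1. Only 7 of the 16 were over 20 kb from a TSS, compared with 34 of 38 at Lpp and 15 of 17 at Trib1. At Rbm47 these distances count the curated TSS at 66098179 inside the gene, which had no site within 1 kb at any stage. From the outer TSS, the 12 regions in introns lay 4.4 to 92.9 kb downstream. MAC sites at Rbm47 formed no large array. The largest clusters held 5 sites, and 4.63% of all clusters had at least as many. At gaps of at most 25 kb a cluster of 16 sites was formed.

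Sites at the start of Rbm47 lay at different TSS in different stages. In MES a site at chr5:66150808-66151607 and in HE a site at chr5:66150526-66151325 covered the inner curated TSS at 66150978. The MAC site at chr5:66151846-66152545 covered the outer curated TSS at 66151954 instead, together with predicted starts at 66151860 and 66151949. It ended 868 bp before the inner TSS. The MES and HE sites stopped 347 and 629 bp short of the outer TSS, so all 3 stages counted as open by the rule of 1 kb, and they did so at different starts. HB had no site within 10779 bp of the inner TSS, and the nearest HP site was 190286 bp away. The third curated TSS, at 66098179, had no site within 1 kb at any stage.

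**Figure D4:**
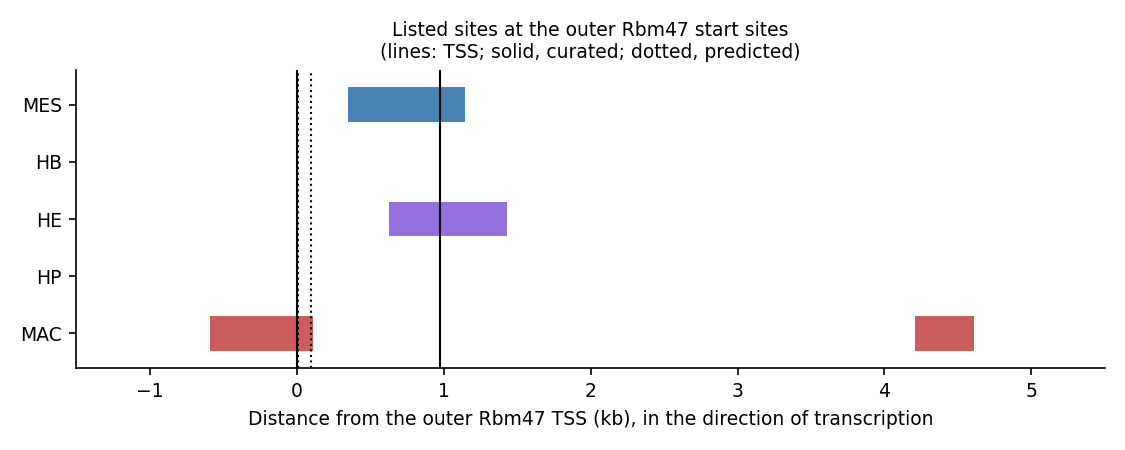
Deposited sites of each stage around the outer start of Rbm47, as distance from the outer TSS in kb in the direction of transcription. Solid lines are curated TSS and dotted lines predicted ones, which nearly meet the solid line at 0. The MES and HE sites cover the inner curated TSS, the MAC site covers the outer one, and HB and HP have none.

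The 250 bases before each of these starts are shown because the sites of the stages lay at different ones. They were read on the minus strand from 5′ to 3′ in GRCm38.p6, at chr5:66151955-66152204 for the outer and chr5:66150979-66151228 for the inner TSS, with capitals as above.
Rbm47, before the outer TSS: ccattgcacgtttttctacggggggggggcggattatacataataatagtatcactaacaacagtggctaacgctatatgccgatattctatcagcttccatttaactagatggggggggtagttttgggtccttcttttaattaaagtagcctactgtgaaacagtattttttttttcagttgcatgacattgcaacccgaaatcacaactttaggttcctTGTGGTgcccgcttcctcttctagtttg
Rbm47, before the inner TSS: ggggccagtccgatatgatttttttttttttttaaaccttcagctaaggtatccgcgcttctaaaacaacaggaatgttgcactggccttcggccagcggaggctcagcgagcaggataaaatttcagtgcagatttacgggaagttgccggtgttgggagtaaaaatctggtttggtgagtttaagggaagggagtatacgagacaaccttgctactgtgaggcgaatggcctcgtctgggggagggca
The sequence before the outer TSS held 1 RUNX match, and the sequence before the inner TSS held none of the 4 consensus sequences. Among 25999 stretches of this length before curated protein-coding TSS, 12.0% held the RUNX, 8.77% the C/EBP, 5.97% the AP-1 and 2.23% the PU.1 consensus.

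Outside the promoter, 1 region of Rbm47 was shared between MAC and an earlier stage. It lay 76.6 kb downstream at chr5:66075046-66075575 and was open in HE and MAC, with a site of 700 bp in MAC and 800 bp in HE. The regions not open in MAC were the MES and HE region at the inner TSS, a MES and HB region 12.0 kb downstream and HE regions 63.4 and 94.4 kb upstream. Both HE regions were nearer to the TSS of Nsun7 than to that of Rbm47.

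The nearest protein-coding neighbour of Rbm47 is closer than that of either other locus. Chrna9, a nicotinic receptor subunit gene, lies 39.1 kb to the 3′ side and had promoter sites in HE and MAC, and 1 of the 16 MAC-only regions was nearest to it. Beyond it Rhoh, which encodes a GTPase of blood cells, had a promoter site in MAC alone and was the nearest gene of 3 MAC-only regions outside the Rbm47 window. To the 5′ side Nsun7 lies 108 kb away with promoter sites in MES, HB and HE, followed by Apbb2 with sites in all 5. The long noncoding RNA gene Gm26725 starts close to the inner TSS on the other strand, so the MES, HE and MAC sites there lie within 1 kb of its start too. The other noncoding genes that start in the window are 1700126H18Rik, 9130230L23Rik, Gm40310 and Gm22929, of which Gm22929 alone had a promoter site, in MAC.

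To describe what the MAC-only distal regions share, 6 consensus sequences were searched on both strands in their central 500 bp and compared with the 19913 MAC-only distal regions elsewhere and with 25265 distal regions elsewhere that were not open in MAC. The selection of the genes did not use sequence. The PU.1 consensus was in 5 of 38 regions at Lpp (13.2%, 95% Wilson interval 5.75 to 27.3%), 3 of 17 at Trib1 (17.6%, 6.19 to 41.0%) and 3 of 16 at Rbm47 (18.8%, 6.59 to 43.0%). The share elsewhere was 14.6% in MAC-only regions and 5.11% in regions not open in MAC. The loci thus had shares like those of other MAC-only regions, within intervals that are wide at these counts. The shorter run GAGGAA was in 63.2%, 64.7% and 56.2% of the regions of Lpp, Trib1 and Rbm47, and in 59.3% and 47.1% of the comparison regions. Within the central 200 bp the full PU.1 consensus was in 7.89% at Lpp, 11.8% at Trib1 and 6.25% at Rbm47. Elsewhere it was in 9.97% of MAC-only regions and 2.28% of regions not open in MAC.

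For the other myeloid consensus sequences the point values varied between the loci. The AP-1 consensus, the site of FOS and JUN dimers, was in 42.1% of regions at Lpp (interval 27.9 to 57.8%), 17.6% at Trib1 (6.19 to 41.0%) and 50.0% at Rbm47 (28.0 to 72.0%), against 34.1% elsewhere. The C/EBP consensus was in 28.9% at Lpp, 41.2% at Trib1 (21.6 to 64.0%) and 18.8% at Rbm47 (6.59 to 43.0%), against 30.4% elsewhere. Trib1 had the lowest share of AP-1 and the highest of C/EBP, and the intervals of the 3 loci overlapped for both. The RUNX consensus was in 44.7%, 47.1% and 43.8%, against 41.5% elsewhere and 34.3% in regions not open in MAC.

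The TEAD consensus CATTCC, bound by the partners of YAP, was the only one of the 6 with a point value below that of other MAC-only regions at all 3 loci. It was in 5 of 38 regions at Lpp (interval 5.75 to 27.3%), 2 of 17 at Trib1 (3.29 to 34.3%) and 0 of 16 at Rbm47 (up to 19.4%), together 9.86% (interval 4.86 to 19.0%), against 23.6% of MAC-only regions elsewhere (23.0 to 24.1%) and 34.5% of distal regions not open in MAC. The intervals of Lpp and Trib1 taken alone include the share elsewhere. TEAD was picked out by comparing the 6 consensus sequences, and the intervals do not allow for that. The GATA consensus AGATAA was in 22.5% of the regions of the 3 loci together (14.4 to 33.5%), against 21.0% elsewhere and 33.5% in regions not open in MAC.

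**Figure D5:**
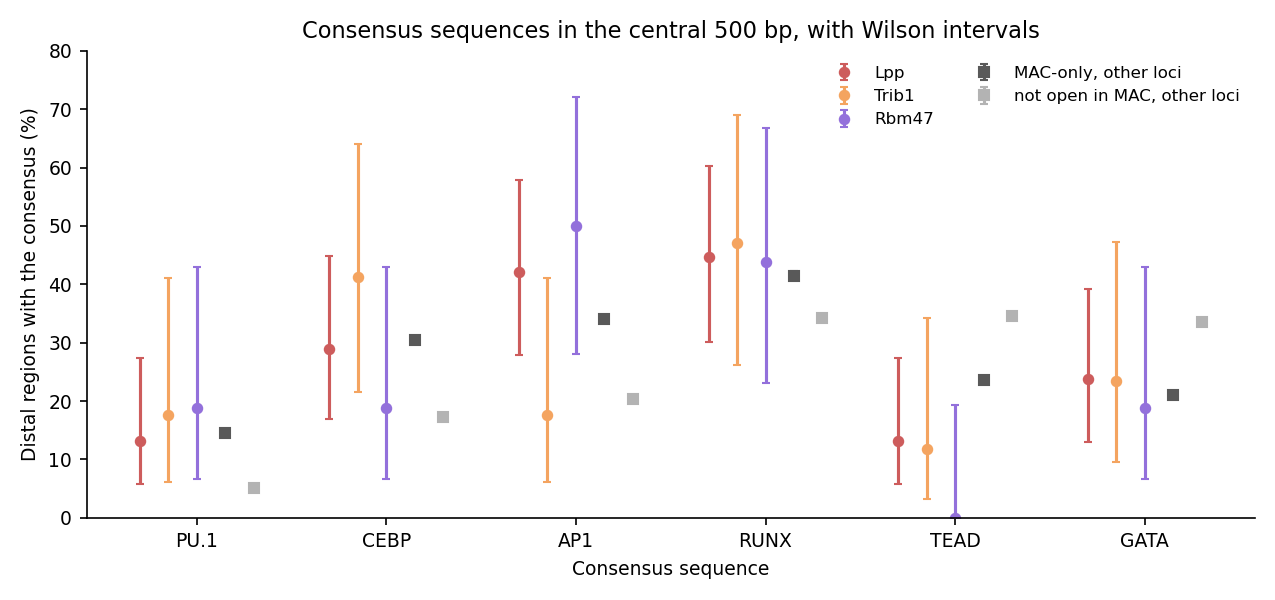
Share of distal regions with each consensus in their central 500 bp (%), with 95% Wilson intervals that cover counting error only. Circles are the MAC-only distal regions of Lpp (38), Trib1 (17) and Rbm47 (16), and squares are MAC-only distal regions and distal regions not open in MAC at other loci. TEAD lies below the dark square at all 3 loci.

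At least 1 of the 4 myeloid consensus sequences was in 81.6% of the regions at Lpp, 82.4% at Trib1 and 75.0% at Rbm47, against 78.7% of MAC-only regions elsewhere and 58.8% of distal regions not open in MAC. No region held all 4, and 3 kinds were found in 4 regions of Lpp, 1 of Trib1 and 1 of Rbm47. The 15 distal regions of the 3 windows that were not open in MAC held at least 1 myeloid consensus in 80% and at least 2 kinds in 26.7%, against 80.3% and 39.4% of the 71 MAC-only distal regions. Their share was 40.0% for C/EBP (interval 19.8 to 64.3%), 46.7% for RUNX (24.8 to 69.9%) and 26.7% for AP-1 (10.9 to 52.0%), against 29.6%, 45.1% and 38.0% of the 71. None of the 15 held the full PU.1 consensus, with an interval up to 20.4%. GAGGAA was in 3 of them (20%, 7.05 to 45.2%), against 62.0% of the 71 (50.3 to 72.4%), and 33.3% held the TEAD consensus (15.2 to 58.3%).

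Base composition differed somewhat between the loci. The median GC share was 43.6% at Lpp, 49.8% at Trib1 and 47.3% at Rbm47, against 46.4% in MAC-only distal regions elsewhere. The median over regions of the share of bases in annotated repeats was 8.6% at Lpp, 8.6% at Trib1 and 21.4% at Rbm47, against 11.0%. The part of base composition in the shares above was not tested.

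Genes that work with Lpp, Trib1 or Rbm47 were looked up for the same readouts. Of 16 such genes all were found, and their windows held a median of 3.5 MAC-only distal regions, from 0 at Ajuba and Rbm46 to 11 at Cebpb, against a median of 2 over all genes. The 3 chosen genes lie above them by their selection. Promoter sites were listed for 10 of the 16 in MAC, against 13 in MES, 13 in HB, 14 in HE and 12 in HP. Over all genes the share with a promoter site was also lower in MAC than in MES, HB and HE, at the values given above for Lpp.

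Among the partners of Trib1, Cebpb, a C/EBP factor gene of activated macrophages, had 11 MAC-only distal regions and Cebpa, the gene of the main TRIB1 target, had 8. No promoter site was listed for Cebpb at any stage, MAC included. Cop1, the gene of the ubiquitin ligase, had 3, and the paralogs Trib2 and Trib3 had 2 each. In the zyxin family and its partners, Fblim1, an adaptor of filamin at adhesions, had 10, Limd1 had 6, Zyx and the actin regulator gene Vasp had 4 each, Wtip had 2 and Trip6 had 1. Trip6, Limd1 and Wtip had promoter sites in the 4 earlier stages and not in MAC. In the group of Rbm47, Apobec1, the deaminase gene, had 8 and a promoter site in HE and MAC. A1cf, the gene of another APOBEC1 cofactor, had 4 and Syncrip had 1.

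The genes whose counts over the 5 stages were most like those of the 3 loci were found by the sum of absolute differences of the 5 counts of open regions. For Trib1 this was Cd300c, an immunoglobulin-like receptor gene of myeloid cells, with a sum of 1, followed by Dtx4 and Naa20 with 3 each. For Rbm47 these were Ccl6 and Ccl9, neighbouring chemokine genes with the same counts and a sum of 3, and Cd300ld and the kinase gene Syk with 4 each. For Lpp the closest was Snx29 with a sum of 20, and Acoxl, Chn2 and the Fc receptor gene Fcgr2b followed with 24 each. No other gene had as many MAC regions as Lpp.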

How the data were processed

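DNaseI-seq of 5 sorted populations was analysed, with 1 list of sites each. Per the methods of the study and the labels, the authors used CutAdapt for trimming, Bowtie for alignment to mm10 (unique hits only), Picard for removal of duplicates and DFilter with bins of 100 bp for site calling. Versions were not given in the sources used here. The deposited intervals gave the start and end of each site in bp without any score or read count, so depth and precision per list cannot be read from them, and read totals of the libraries were not used here.

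Sites were set to 500 bp around their middle, and windows sharing 125 bp or more were merged. Patterns, distances, clusters and exact consensus matches were computed with Python 3.11.15, pandas 2.3.3 and pysam 0.24.0 against RefSeq GRCm38.p6, and merging and counting were tested on simulated intervals. Distal was over 2 kb from a curated protein-coding TSS, and a promoter was open with a site within 1 kb of any annotated TSS. Repeats were the soft-masked bases of the assembly. Shares have 95% Wilson intervals, which treat regions as independent and cover counting error only. With 1 list per stage no test was made. The result of 1 further consensus is not reported here.

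The 3 genes, the related genes and the consensus sequences were chosen with earlier results of these data known. The text named the 3 genes, their neighbours, the next 5 genes in the rank, the 3 most alike genes with ties, 16 related genes and 7 markers. Of the regions it named the widest MAC-only site, the one with most kinds of myeloid consensus, those shared with MAC and those open only before MAC. Alternatives varied the merging, site width, reach, distance, nearest gene, TSS set, consensus and promoter rule, and the gap of clusters was varied after seeing the data.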

Additional observations from a re-analysis of the deposited data

How the results depend on the processing

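Of 69 values under alternatives chosen at the start, 53 moved by no more than 1.5 times for a count, or stayed within its Wilson interval for a share. With only the wider sites of each list, from its median width up, MAC-only distal regions fell to 14 at Lpp, 10 at Trib1 and 5 at Rbm47, since fewer sites entered. With the widest sites up to the length of the shortest list they were 14, 10 and 3. The MAC-only share at Rbm47 was 100.0% under both. Within 50 kb Trib1 had 5 and within 200 kb 34, and its MAC-only share within 50 kb was 62.5%. Beyond 20 kb from a TSS, Rbm47 had 7. The shorter PU.1 consensus GAGGAA was in 63.2% of regions at Lpp, 64.7% at Trib1 and 56.2% at Rbm47, and the full consensus in the central 200 bp in 6.25% at Rbm47. The promoter patterns did not change with a reach of 2 kb or 100 bp, or with curated TSS only. The lists carry no depth and read totals were not used here, so the longer MAC list and its narrower sites cannot be told apart from more open chromatin in MAC. No paired analysis was possible because each stage was 1 sample and no result came from a test.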
